A study of Bos taurus with 6 samples.

Results

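The subject is the control cumulus cell: cumulus cells of Holstein dairy cows that had received follicle-stimulating hormone (FSH) and were collected after its withdrawal, with no other treatment. On each of 6 two-colour arrays the control channel was taken, which was Cy5 on 3 arrays and Cy3 on the other 3, and the brightness of each gene probe was ranked within that channel. These 6 control readings are 6 of the 12 channels of the series, and they stand for 3 replicates, each read once in Cy5 and once in Cy3. Of 43794 gene probes, 43488 had a value in all 6 readings and 306 were left out for a spot marked to be ignored. The levels of the control cells are described here, and not their ratio to the other condition.

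In the study, 6 cows were given FSH injections for 3 days, and cumulus-oocyte complexes were recovered 68 h after the last injection, a schedule known as coasting. The other condition on the arrays had, in addition, cetrorelix, which the labels call an agonist of gonadotropin-releasing hormone and which is known as an antagonist, dosed daily with 12 mg over 5 days, starting on day 2 of the FSH course. Control cells came from FSH and withdrawal alone, with basal luteinizing hormone (LH) left unblocked. Cells were stripped from the complexes, and their RNA was amplified and labelled chemically at its guanines, per the labels' protocols. Which cows contributed to a replicate, and their number, is not stated in the labels.

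Cumulus cells are the granulosa cells that surround the oocyte. They are coupled to it by gap junctions, feed it with the products of glycolysis and with cholesterol, and respond to FSH through cyclic AMP. After an ovulatory LH surge they expand in a matrix of hyaluronan under the action of EGF-like growth factors, and the follicle wall begins to luteinise.

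One reading stood apart from the rest. The Cy5 reading of replicate 3 correlated with the other 5 readings at Spearman's rho of 0.739 to 0.767 across the 43488 probes, whereas the other pairs of readings lay between 0.787 and 0.858. A probe counted as above background where its raw intensity was above the 95th percentile of that channel's 153 negative control spots. By that count, 66.7%, 63.9% and 54.8% of gene probes were above background in the Cy5 readings of replicates 1, 2 and 3, and 69.7%, 62.6% and 62.2% in their Cy3 readings. The Cy3 arrays shared one slide and the Cy5 arrays another, so dye and slide cannot be told apart. Some counts below are given with and without the reading that stood apart. A count given once includes it and may change without it.

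The array names 15128 genes by at least 1 probe with a single symbol, and a gene was read from its brightest probe. Of the genes, 7434 (49.1%) were above background in all 6 readings, 8212 (54.3%) in the 5 readings left without the Cy5 reading of replicate 3, and 1123 (7.42%) in none. A gene's level is given as its percentile, the share of gene probes that were dimmer, averaged over the 6 readings, with an SD over the 3 replicates. The median gene lay at the percentile 56.5 and 2539 genes (16.8%) lay at or above 90, that is, among the brightest 10% of gene probes. The shares of 49.1%, 16.8% and 7.42% of all genes stand beside the counts of every list below. Brightness depends on the probe as well as on the transcript: the 4010 genes with several probes had a median gap of 32.3 percentile points between their brightest and dimmest probe, and 1098 of them (27.4%) had a gap above 50. Levels of different genes are therefore set side by side as readings of their probes and not as relative amounts of RNA, and in a sample of many cells fewer cells of a type and less RNA per cell cannot be told apart.

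Levels of marker genes are given first, by lists chosen with earlier results of these data known. They describe the cells and are no independent check of their label. The list of granulosa and cumulus identity had 22 genes with a probe, a median percentile of 89.0 ± 0.53 (SD, n = 3), 17 members above background in all 6 readings (77.3%, beside 49.1% of all genes) and 9 among the brightest 10% (40.9%, beside 16.8%). INHBA, the beta A subunit of activin and inhibin, read 64082, 64501 and 63828 intensity units above local background in the Cy5 readings of replicates 1, 2 and 3, and 53073, 60554 and 55828 in the Cy3 readings. It was the third brightest named gene of the array, at the percentile 99.9. SERPINE2, a secreted protease inhibitor of granulosa cells, read 64635, 65215 and 65182 in Cy5 and 40329, 56911 and 45022 in Cy3, and reached the scanner's ceiling, taken as 65000 raw units, in 3 of the 6. INHA, the alpha subunit of inhibin, read 49426, 51010 and 41417 in Cy5 and 31882, 38699 and 31770 in Cy3. All 3 lay far above the negative controls in every reading, and they were brighter in each Cy5 reading than in the Cy3 reading of the same replicate.

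GATA4, a transcription factor of granulosa cells, had the percentile 98.6 ± 0.24 and FST, which encodes the activin-binding protein follistatin, 98.1 ± 0.58. FSHR, the receptor for FSH, read 1372, 1219 and 1137 in Cy5 and 1486, 1499 and 1223 in Cy3, at the percentile 89.0 ± 0.28, so its readings were steady across replicates and dyes. AMH, anti-Müllerian hormone, lay at 89.1 ± 1.9. CYP19A1, the aromatase that makes oestradiol, lay at 84.3 ± 4.4 and read 1192, 653 and 340 in Cy5 and 1429, 837 and 569 in Cy3, highest in replicate 1 and lowest in replicate 3 in both dyes. Not every defining gene was bright. FOXL2, a transcription factor of the granulosa lineage, was above background in 2 of 6 readings at the percentile 30.8 ± 9.2, NR5A1 in 6 of 6 at 54.4 ± 1.6, WT1 in 4 of 6 at 34.6 and ESR1, an oestrogen receptor, in 1 of 6 at 26.9.

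Markers of other cells were dimmer, with exceptions. Of 16 oocyte markers with a probe, 2 were above background in all 6 readings (4 in the 5 left without the Cy5 reading of replicate 3), none was among the brightest 10%, and their median percentile was 31.4 ± 4.6. Their summed intensity lay between 1876 and 3553 over the 6 readings, beside 215732 to 255149 for the identity list. The sums cover 16 and 22 genes, and the second holds INHBA, SERPINE2 and INHA, which averaged 60311, 56216 and 40701 units. The background thresholds lay 120 to 201 units above the median local background, so probes at background also add to a sum. Sums here and below are therefore not relative amounts of RNA. GDF9, a growth factor of the oocyte, was above background in 0 of 6 readings and ZP4, a protein of the zona pellucida, also in 0 of 6, while BMP15 was in 4 of 6 at the percentile 40.9. KPNA7, an importin of oocytes, was the brightest of the list at the percentile 79.7, followed by FIGLA at 61.8.

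Leukocyte markers had a median percentile of 31.7 with 3 of 12 above background throughout and a summed intensity between 1498 and 2490. PTPRC, the common leukocyte antigen CD45, was above background in 6 of 6 at the percentile 68.2, and CD68 of macrophages at 69.1, whereas TYROBP, an adaptor of myeloid and natural killer cells, was in 0 of 6. The 11 endothelial markers had a median of 41.7 and summed intensities of 1437 to 2351, with 1 above background throughout (9.09%). PECAM1 was above in 1 of 6 and CDH5 in 4 of 6. The 7 erythrocyte markers had a median of 48.9 and summed intensities of 917 to 1935, with 3 above throughout (42.9%, near the share of all genes). HBB, beta globin, was above in 4 of 6. These lists lay below the median of all genes.

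Theca and stroma markers were mixed, with a median of 53.6 ± 14 and summed intensities of 9708 to 16653. Of 13, 5 were above background throughout (38.5%, beside 49.1% of all genes). Among the brightest 10% were 2 (15.4%, beside 16.8%). ACTA2, smooth muscle actin, read 4482, 5189 and 5427 in Cy5 and 10795, 11906 and 9850 in Cy3, at the percentile 97.1, and each Cy3 reading was brighter than the Cy5 reading of the same replicate. PDGFRA, a receptor of platelet-derived growth factor, lay at 91.9 and LUM, the matrix proteoglycan lumican, at 88.3. The defining genes of theca steroid synthesis were lower, CYP17A1 at 53.6 and INSL3 at 58.4, each above background in 5 of 6 readings. COL1A2 and DCN, a collagen chain and a proteoglycan of fibroblasts, were above in 0 of 6. Of 6 markers of the ovarian surface epithelium, UPK1B, a uroplakin of the plasma membrane, read 16419, 21608 and 9712 in Cy5 and 23859, 23509 and 23250 in Cy3, while KRT7, a keratin, was next at the percentile 30.99 and the list's median was 20.7 with summed intensities of 10180 to 24569. The part of other cell types in the levels of the control cells was not tested.

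**Figure D1:**
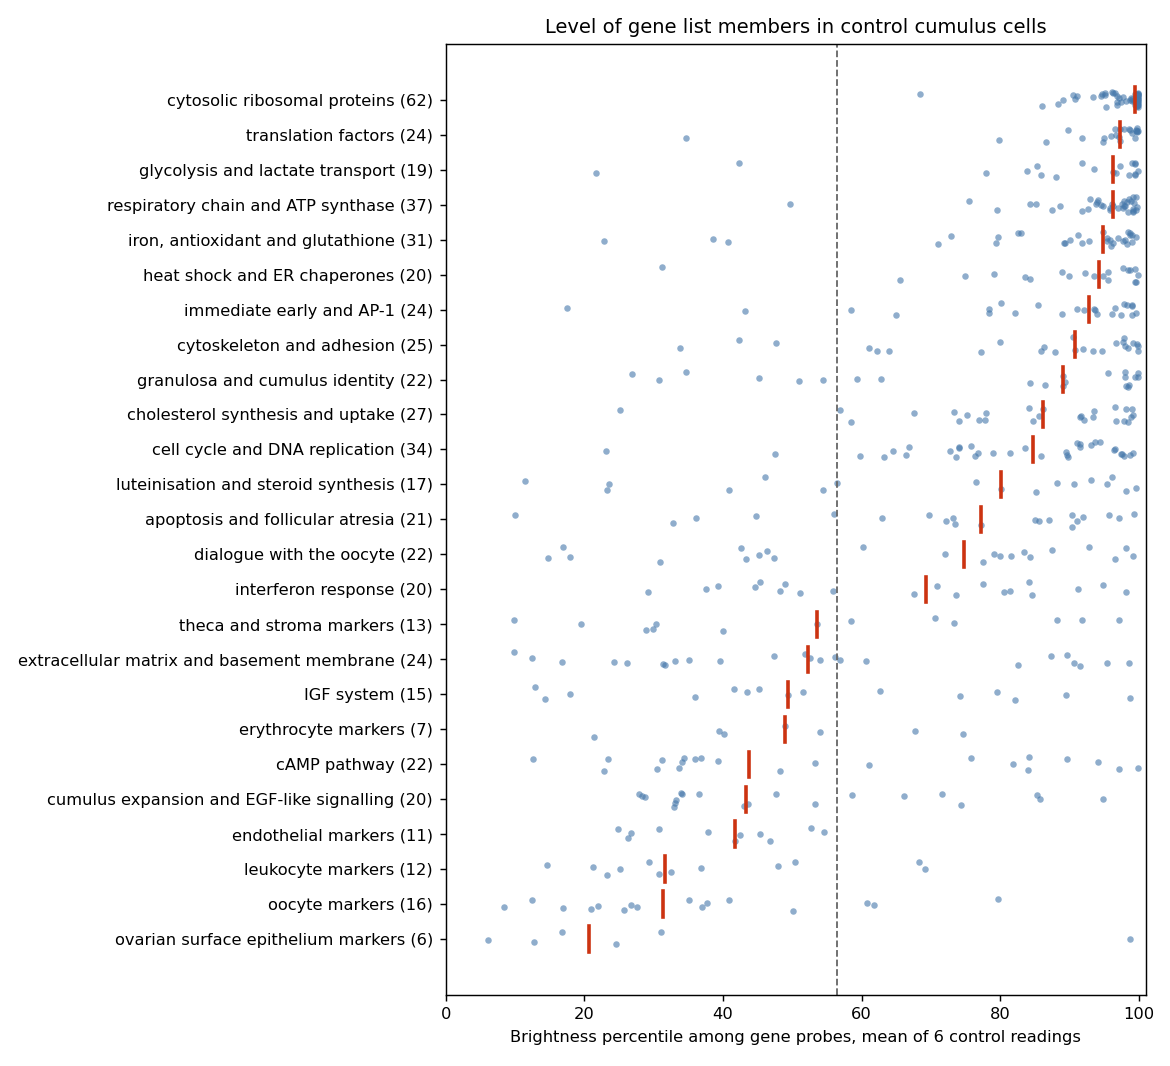
Brightness percentile of every gene with a probe in each of 25 gene lists (points, mean of the 6 control readings; number of genes in parentheses), with the list median as a red bar and the median of all 15128 genes, 56.5, as a dashed line. Ribosomal, translation and energy genes crowd the right edge, and the lists of oocyte, leukocyte and surface epithelium markers lie furthest left apart from single bright genes.

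The 30 brightest genes spanned intensities of 40329 to 65289 over the 6 readings. They included 9 cytosolic ribosomal proteins of the list used here, among them RPS29, RPS21, RPL7, RPS2, RPL12 and RPS6, and also RPS4Y1, a further gene of the small ribosomal subunit. LDHA, the lactate dehydrogenase subunit that favours lactate, read 58590, 64058 and 61016 in Cy5 and 60867, 61530 and 60221 in Cy3. All 6 readings lay near the scanner's ceiling, where differences can be compressed. TPT1, a translation-associated protein, PDIA6, a disulfide isomerase of the endoplasmic reticulum, ACTG1, a cytoplasmic actin, TPM4, a tropomyosin, SRGN, the core protein of the proteoglycan serglycin, and the lysosomal membrane proteins LAPTM4B and SCARB2 were in the same group, as were INHBA and SERPINE2. Another 10 carried only locus identifiers, of which 8 are annotated as pseudogenes in the RefSeq table of assembly ARS-UCD2.0, so that near-identical copies may share their signal. At this end the order means little: 9 of the 30 had a reading at or above 65000, and the genes of rank 30 and 31, RPS3 and PFDN5, lay at 99.82 in both cases.

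Genes of protein synthesis were bright as a group. All 62 ribosomal protein genes with a probe were above background in all 6 readings and 58 were among the brightest 10%, with a median percentile of 99.5 ± 0.068. RPLP0, a protein of the ribosomal stalk, lay at 99.5, RPS18 at 95.2, and FAU, which encodes a ribosomal protein fused to a ubiquitin-like domain, was the dimmest at 68.5. Of 24 translation factors, 23 were above background throughout and 20 among the brightest 10%, with a median of 97.3 ± 0.15. EEF1A1, which brings transfer RNA to the ribosome, lay at 99.7, and EEF1A2, its paralog of muscle and nerve, was above background in 3 of 6 readings at 34.7.

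Energy genes were nearly as bright. Of 37 nuclear genes of the respiratory chain and ATP synthase, 36 were above background throughout and 30 among the brightest 10%, with a median percentile of 96.2 ± 0.46. ATP5F1A, the alpha subunit of ATP synthase, read 34853, 49792 and 49766 in Cy5 and 40363, 40418 and 42416 in Cy3. COX5B, a subunit of cytochrome c oxidase, lay at 99.7 and COX4I1 at 94.9, whereas UQCRC1 of complex III was above background in 4 of 6 readings at 49.7. No mitochondrially encoded gene of the list had a named probe. Of 19 genes of glycolysis and lactate transport, 17 were above background throughout and 12 among the brightest 10%, with a median of 96.3 ± 0.98.

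Within glycolysis, LDHB, the second lactate dehydrogenase subunit, and PGAM1, phosphoglycerate mutase, each lay at 99.4. SLC2A1, a glucose carrier, lay at 85.8 ± 2.4, and the hexokinases HK2 and HK1 at 83.8 and 77.9. SLC16A1, a carrier that moves pyruvate and lactate, lay at 91.7 ± 0.74, while SLC16A7, a related carrier of high affinity, was above background in 0 of 6. ALDOC, the brain-type aldolase, was above in 4 of 6. The key members LDHA, ALDOA, PFKP, HK2, SLC2A1 and SLC16A1 were above background in 6 of 6 readings.

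Cholesterol synthesis genes had a median percentile of 86.2 ± 0.55, with 25 of 27 above background throughout and 13 among the brightest 10%. SREBF2, the transcription factor that drives the pathway, read 25555, 25282 and 27620 in Cy5 and 23282, 28183 and 26494 in Cy3 and so varied little. The enzymes CYP51A1, MSMO1 and HMGCS1 lay at 99.1, 98.9 and 98.4, and SQLE, squalene epoxidase, at 96.8. The dimmest probes of SREBF2, CYP51A1, MSMO1 and HMGCS1 lay at 33.8, 71.7, 67.8 and 30.4. STARD4, a cholesterol transport protein, was above background in 0 of 6 readings, and MVD and PMVK of the mevalonate steps lay at 58.4 and 56.9.

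The genes of luteinisation and steroid synthesis were divided. Their median percentile was 80.1 ± 1.2. It was lower when the median over a gene's probes replaced its brightest probe, as given under the processing. Of 17 genes, 10 were above background throughout (58.8%, beside 49.1% of all genes), and 11 without the Cy5 reading of replicate 3. Among the brightest 10% were 6 (35.3%, beside 16.8%). NR4A1, an orphan nuclear receptor induced by gonadotropins, read 37013, 38884 and 41557 in Cy5 and 34617, 49919 and 45381 in Cy3, at the percentile 99.6. HSD3B1, which converts pregnenolone to progesterone, lay at 90.7 ± 2.7, PGR, the progesterone receptor, at 88.2 ± 1.2, and CYP11A1, which cleaves the side chain of cholesterol, at 85.2 ± 3.4. STAR, which carries cholesterol into mitochondria, was above background in 4 of 6 readings at 56.5 ± 11. LHCGR, the receptor for LH, read 174, 108 and 131 in Cy5 and 128, 124 and 148 in Cy3. It was above background in 1 of 6 readings, at the percentile 23.5 ± 6.8, and the sulfotransferase SULT1E1 in 2 of 6 and the prolactin receptor PRLR in 0 of 6.

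Many genes of cumulus expansion were dim, but their share above background was not far from that of all genes. Of 20 genes with a probe, 8 were above background throughout (40.0%, beside 49.1% of all genes). Each was above in at least 1 reading, whereas 7.42% of all genes were in none. The median percentile was 43.3 ± 3.3, and 1 gene was among the brightest 10% (5.0%, beside 16.8%). The cAMP pathway, described below, had a similar share and median. HAS2, the synthase of hyaluronan, read 165, 142 and 155 in Cy5 and 153, 143 and 157 in Cy3. PTGS2, the inducible prostaglandin synthase, read 140, 126 and 142 in Cy5 and 175, 115 and 158 in Cy3. TNFAIP6, which cross-links the hyaluronan matrix, read 136, 141 and 77 in Cy5 and 186, 158 and 225 in Cy3. Each of these 3 was above background in 3 of 6 readings, at percentiles of 34.0, 27.9 and 32.9, and their readings lay close to the range of 120 to 201 units that the thresholds of the 6 channels cover after subtraction of the median local background, with TNFAIP6 at 77 and 225 the furthest outside it.

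PTX3, a pentraxin of the expanded matrix, was above background in 4 of 6 readings at 43.7, and AREG, the EGF-like factor amphiregulin, in 6 of 6 at 43.0 with readings of 131 to 247. Both were dim in every reading. BTC, the EGF-like factor betacellulin, was the exception, with 3596, 3666 and 2637 in Cy5 and 4433, 4703 and 3243 in Cy3, at the percentile 94.8 ± 0.61. This holds for its brightest probe, and the dimmest of its 3 probes lay at 57.5. VCAN, the proteoglycan versican, lay at 85.8 ± 4.9, and ADAM17, the protease that sheds EGF-like factors, at 85.3 ± 1.1. The dimmest of the 3 ADAM17 probes lay at 11.7. The levels of a dim probe show only that it was at or near background at this sensitivity and not that the transcript was absent.

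**Figure D2:**
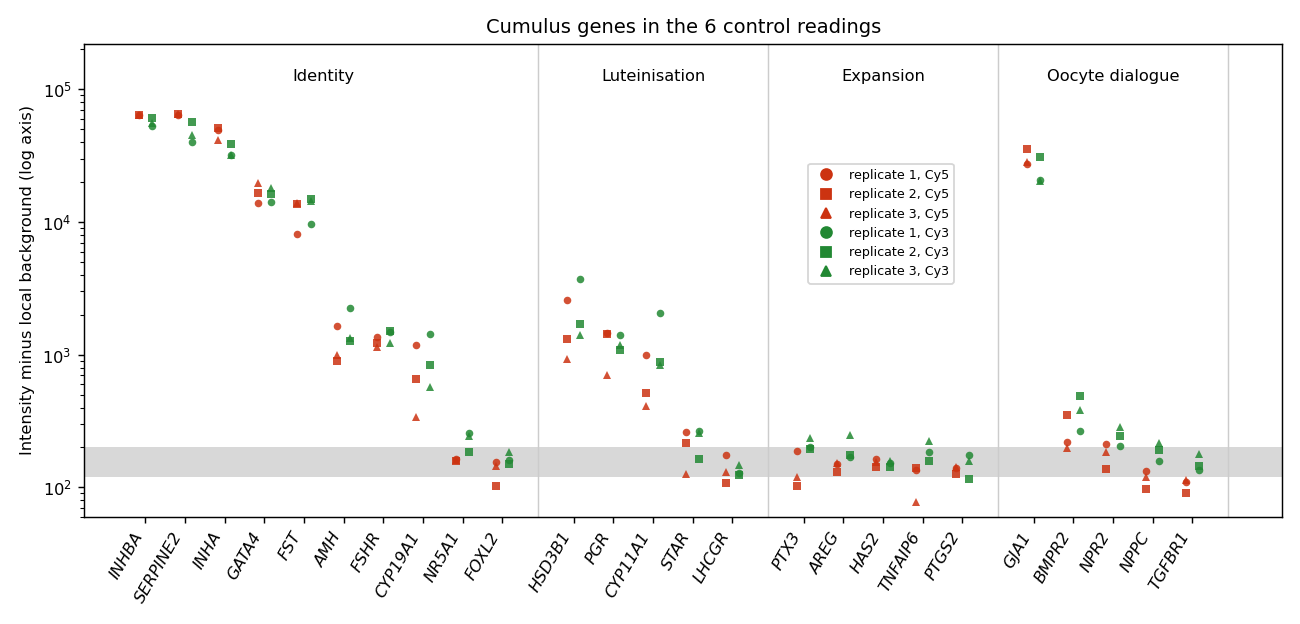
Intensity minus local background (log axis) of key cumulus genes in the 6 control readings, with Cy5 readings in red left of Cy3 readings in green and a symbol for each replicate. The grey band spans 120 to 201 units, the lowest and highest of the 6 background thresholds less the median local background: the expansion genes, FOXL2, LHCGR, NPPC and TGFBR1 lie in or around it, and INHBA, SERPINE2, INHA and GJA1 lie at the top.

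The list of the dialogue with the oocyte had a median percentile of 74.8 ± 3.4. It was lower with the median over a gene's probes, as given under the processing. Of 22 genes, 13 were above background throughout (59.1%, beside 49.1% of all genes). Among the brightest 10% were 4 (18.2%, beside 16.8%), and 3 were above in none, beside 7.42% of all genes. GJA1, connexin 43, which joins cumulus cells to each other, read 27370, 35316 and 28127 in Cy5 and 20868, 30674 and 20346 in Cy3. It lay at the percentile 99.1, and each Cy5 reading was brighter than the Cy3 reading of the same replicate. SMAD2, which transmits signals of GDF9 and activin, lay at 98.2, and MYO10, a myosin of filopodia, at 96.5. BMPR2, a receptor for the oocyte's growth factors, lay at 72.1 and NPR2, the receptor of C-type natriuretic peptide that helps to hold the oocyte in meiotic arrest, at 60.1, each above background in 6 of 6. NPPC, the precursor of that peptide, made chiefly by the follicle wall, was above in 2 of 6 at 30.9, TGFBR1 and SMAD5 in 0 of 6.

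The cAMP pathway, through which FSH acts, had a median percentile of 43.7 ± 4.7. Of 22 genes, 8 were above background throughout (36.4%, beside 49.1% of all genes), and 11 without the Cy5 reading of replicate 3. Among the brightest 10% were 3 (13.6%, beside 16.8%). GNAS, the stimulatory G protein, read 62612, 61526 and 59757 in Cy5 and 49710, 54020 and 44826 in Cy3, at the percentile 99.8. ATF1, a transcription factor phosphorylated by protein kinase A, lay at 97.1 and the adenylate cyclase ADCY6 at 94.1. The dimmest probes of GNAS, ATF1 and ADCY6 lay at 57.7, 78.3 and 21.7. The regulatory subunits PRKAR1A and PRKAR2B lay at 81.8 and 75.8, while the phosphodiesterase PDE4D was above background in 2 of 6, and CREB1 in 1 of 6. In the IGF system, 7 of 15 genes were above throughout (46.7%, beside 49.1% of all genes) and the median was 49.4 ± 4.0. IGFBP7 lay at 98.7, the receptors INSR and IGF1R at 82.1 and 74.2, IGF1 at 43.4 and IGFBP1 and IRS1 were above in 0 of 6.

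Stress and redox genes were bright. Of 31 genes of iron, antioxidant and glutathione metabolism, 27 were above background throughout and 20 among the brightest 10%, with a median percentile of 94.8 ± 0.82. PRDX4, a peroxiredoxin of the endoplasmic reticulum, lay at 99.6, TXNRD1, thioredoxin reductase, at 99.1, FTH1, ferritin heavy chain, at 98.5 and SOD1 at 97.9. Heat shock and endoplasmic reticulum chaperones had a median of 94.2 ± 0.81, with 19 of 20 above throughout and 12 among the brightest 10%, HSPA8 and HSP90AA1 at 99.6 and 99.5, and HSPA5, the main chaperone of the endoplasmic reticulum, at 97.8. Among immediate early genes the median was 92.8 ± 1.3, with 22 of 24 above throughout and 14 among the brightest 10%. FOS read 54294, 49854 and 39448 in Cy5 and 40573, 45550 and 37774 in Cy3, and EGR1 lay at 96.2, CCN1 at 99.1 and BTG2 at 99.04, whereas EGR3 was above in 0 of 6.

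Structural genes spanned a wide range. The cytoskeleton and adhesion list had a median percentile of 90.7 ± 1.1, with 21 of 25 above background throughout and 14 among the brightest 10%, VIM, vimentin, at 99.8, TMSB4X at 96.7, ACTB at 90.7 and KRT8 at 87.9, while its partner KRT18 was above in 5 of 6 readings at 42.4 and CDH1 in 4 of 6 at 33.8. The extracellular matrix list had a median of 52.2 ± 1.6. Of 24 genes, 9 were above throughout (37.5%, beside 49.1% of all genes), and 12 without the Cy5 reading of replicate 3. Among the brightest 10% were 4 (16.7%, beside 16.8%). LAMA1, a laminin chain, lay at 98.6 ± 0.28, TIMP2, an inhibitor of metalloproteases, at 95.3, SPARC at 90.6 and the basement membrane collagen COL4A1 at 87.3, and FN1, fibronectin, at 56.1.

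Cell cycle genes had a median percentile of 84.7 ± 1.2, with 32 of 34 above background throughout and 13 among the brightest 10%. PCNA, the clamp of DNA polymerases, read 31375, 31756 and 22127 in Cy5 and 33268, 28569 and 21445 in Cy3. CCND2, a cyclin that FSH induces in granulosa cells of rodents, lay at 98.8, RRM1 of ribonucleotide reductase at 97.8 and CCNB1, the mitotic cyclin, at 96.4. MKI67 and TOP2A were above in 6 of 6 but lay at 59.8 and 63.2, and CCND1 was above in 2 of 6. Apoptosis and atresia genes had a median of 77.2 ± 1.2, with 17 of 21 above throughout and 7 among the brightest 10%. FAS, a death receptor, read 27010, 25020 and 37706 in Cy5 and 29834, 26245 and 33438 in Cy3, highest in replicate 3 in both dyes, and MCL1, which opposes apoptosis, lay at 97.2, CLU, clusterin, at 90.3, BAX at 73.2 and BCL2 at 36.1. Interferon response genes had a median of 69.2 ± 0.73, with 11 of 20 above throughout (55.0%, beside 49.1% of all genes). Among the brightest 10% were 3 (15.0%, beside 16.8%). B2M, the light chain of class I molecules, lay at 98.2, ISG15 at 77.5 and MX1, above in 4 of 6, at 48.9.

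The 3 control replicates were then compared with each other. The question was which transcripts differed between samples of the same condition by more than the 2 dye readings of 1 replicate did. The F test of limma was fitted on log2 intensities, normexp-corrected with an offset of 50 and quantile-normalized over the 6 readings, with replicate and dye as terms, for the 29928 probes above background in at least 3 readings. The 2 readings of a replicate were treated as 1 extract labelled in both dyes, so its p-values measure technical spread within 3 samples and say nothing of other cows. Of the probes, 2481 (8.29%) differed at a Benjamini-Hochberg adjusted p under 0.05. Of the 11739 genes tested, 1249 (10.6%) differed, and 355 (3.02%) also had at least a 2-fold range between replicates. Replicate 1 was the highest for 459 of the 1249, replicate 2 for 324 and replicate 3 for 466, while replicate 3 was the lowest for 558.

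These counts depend on single samples and on the scaling. Without the Cy5 reading of replicate 3, 908 of 11739 genes passed, 747 of them among the 1249. At the level of probes, 2481 differed in all, 1469 without replicate 1, 2292 without replicate 2 and 989 without replicate 3. With median centring in place of quantile normalization, 0 probes passed in limma, 207 had an unadjusted p under 0.05, and the prior degrees of freedom were 2.28 in place of 20.5. Without the dye term, 157 probes passed. All 25 genes named next passed without the Cy5 reading of replicate 3, with a largest limma adjusted p of 0.000109.

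The 25 genes of lowest p had fitted ranges of 3.29-fold to 61.2-fold between their highest and lowest replicate, the upper end being BOLA-DQB, whose lowest replicate was above background in only 1 of its 2 readings. Among them are genes of the cattle major histocompatibility complex (MHC), which present peptides to T cells. BOLA-DQB, a class II beta chain, read 138, 7450 and 185 in Cy5 and 196, 22369 and 188 in Cy3. Replicate 2 alone was bright, and replicates 1 and 3 were each above background in 1 of 2 readings. The fitted difference of 5.93 on the log2 scale, with a limma adjusted p of 1.01e-12, is taken against levels near background. BOLA-DQB1 read 851, 2680 and 299 in Cy5 and 1262, 3025 and 380 in Cy3, and BOLA-DYB 620, 1624 and 209 in Cy5 and 794, 2806 and 348 in Cy3. Both were highest in replicate 2 and lowest in replicate 3, by 6.96-fold and 6.43-fold.

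BOLA, a class I heavy chain, went the other way and read 5410, 403 and 4939 in Cy5 and 5940, 716 and 4555 in Cy3, lowest in replicate 2 by 8.79-fold. Its other 2 tested probes ranged by 1.62 and 0.35 on the log2 scale, where the brightest probe ranged by 3.14, and the probe with a range of 0.35 did not pass. Over all 10 tested MHC symbols, a group formed after the values were seen, 6 passed, 3 of them highest in replicate 1 and 3 in replicate 2, none in replicate 3. BOLA-N and BOLA-NC1, further class I genes, ranged by 1.71-fold and 1.77-fold. The leukocyte markers beside them had summed intensities of 1498 to 2490 over all readings, and of 6 tested only PTPRC passed, highest in replicate 3, and none passed without the Cy5 reading of that replicate.

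GSTO1 and GPX4 were the members of the iron, antioxidant and glutathione list among the 25. GSTO1, a glutathione transferase of the omega class, read 259, 3662 and 115 in Cy5 and 356, 4498 and 330 in Cy3, with a fitted difference of 15.3-fold between replicates 2 and 3, of which replicate 3 was above background in 1 of 2 readings. A second probe of GSTO1 also passed but ranged by only 0.86 on the log2 scale. GPX4, which reduces lipid hydroperoxides, read 12243, 4652 and 2433 in Cy5 and 17116, 6974 and 3269 in Cy3, highest in replicate 1 and lowest in replicate 3 in both dyes, 4.45-fold apart. Outside that list, TXNIP, which binds and inhibits thioredoxin, read 782, 6805 and 4614 in Cy5 and 1128, 9047 and 10027 in Cy3. Replicate 1 was low in both dyes, by 8.29-fold against replicate 2. Of the 2 other tested TXNIP probes 1 passed, with a range of 0.95 on the log2 scale. GLRX5, of mitochondrial iron-sulfur assembly, was highest in replicate 2 by 5.25-fold, and ALAD, of haem synthesis, was highest in replicate 1 by 3.99-fold, with all 3 ALAD probes past the test. VNN1, a pantetheinase, was 4.64-fold higher in replicate 2 than in replicate 1.

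The rest of the 25 were as follows. TMEM130, a transmembrane protein, read 203, 169 and 1661 in Cy5 and 221, 233 and 2190 in Cy3. IL1A, the cytokine interleukin 1 alpha, read 175, 138 and 764 in Cy5 and 168, 265 and 1712 in Cy3. Both were bright in replicate 3 only, by 7.70-fold and 5.61-fold over replicate 1. TARS3, related to threonyl-tRNA synthetase, read 5895, 5674 and 699 in Cy5 and 5406, 6641 and 1024 in Cy3 and was thus low in replicate 3 only, 6.40-fold below replicate 2. ECRG4, which encodes the secreted peptide augurin, PCDH8, a protocadherin, ASZ1, a protein of germ cells, CENPX, of the kinetochore, and C28H10ORF116 were highest in replicate 1, by 5.12-fold, 4.73-fold, 4.28-fold, 3.29-fold and 12.3-fold. RNF135, a ubiquitin ligase, CLIC3, a chloride channel protein, SLC35G1, BZW2, LOC504773 and LOC783399 were highest in replicate 3 and LOC616942 in replicate 2, all between 3.93-fold and 6.47-fold. The other tested probe of BZW2 did not pass, nor did 1 of the other 2 of RNF135, with ranges of 0.17 and 0.14 on the log2 scale.

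**Figure D3:**
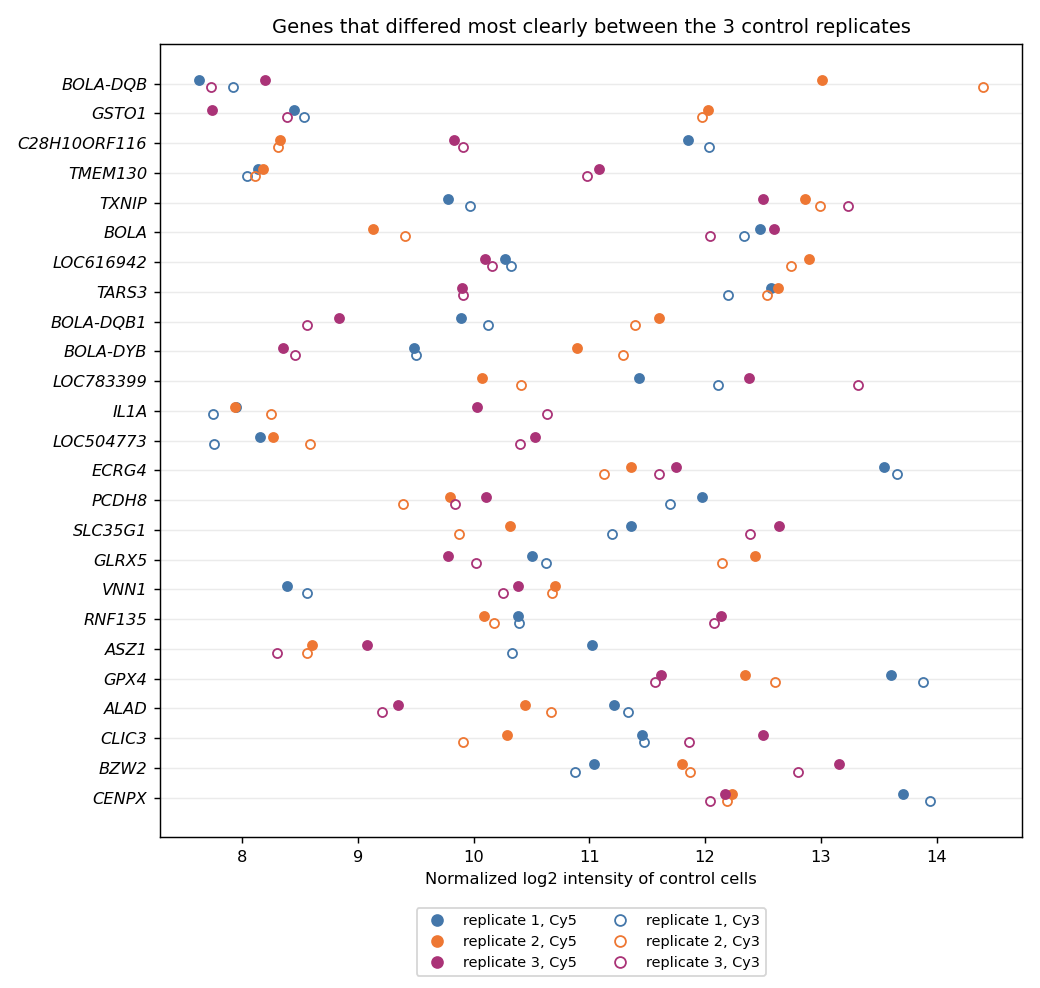
Normalized log2 intensity of the 25 genes of lowest p in the 3 control replicates (colours), with Cy5 readings filled and Cy3 readings open. The genes were chosen for gaps between replicates that are wide beside those between the 2 readings of a replicate. For BOLA-DQB and GSTO1, replicate 2 alone is bright.

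Among the lists, glycolysis and lactate transport had the highest share of members that differed between replicates, 9 of 18 tested (50%, beside 10.6% of all tested genes, and 8 without the Cy5 reading of replicate 3, beside 7.73%). Of the 9, 6 were highest in replicate 1 and 3 in replicate 2. PGK1, phosphoglycerate kinase, read 44595, 32060 and 19395 in Cy5 and 50680, 42536 and 26238 in Cy3, a range of 1.02 on the log2 scale with a limma adjusted p of 0.00217. TPI1, ALDOA, ENO1 and SLC16A3, which exports lactate, were likewise highest in replicate 1 and lowest in replicate 3 in both dyes, with log2 ranges of 0.82, 0.85, 0.98 and 0.91. The glucose carriers SLC2A3 and SLC2A1 and the hexokinase HK2 were instead highest in replicate 2, with SLC2A3 at 11939, 21335 and 8855 in Cy5 and 18696, 27115 and 15004 in Cy3. PFKM was highest in replicate 1 by 2.00-fold. With plain background subtraction, SLC2A1, HK2, ALDOA, TPI1, ENO1 and SLC16A3 no longer passed. The other tested probes of SLC2A1, HK2 and ENO1 did not pass either, with ranges of 0.07 to 0.22 on the log2 scale. The shares of lists and of all genes are not matched for brightness, and dim probes passed less often. Of the 2481 probes past the test, at least 2231 lay among the 15929 above background in all 6 readings. Tested alone, 2915 of these 15929 passed. The part of brightness in the shares was not tested.

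Redox genes had 11 of 30 members past the test (36.7%; 9 without the Cy5 reading of replicate 3), 6 of them highest in replicate 1 and 9 lowest in replicate 3. Besides GPX4 and GSTO1 these were FTH1, GPX1, GPX3, GSTA1, GSTM3, PRDX1, PRDX2, PRDX3 and MT1A, a metallothionein that read 4984, 2060 and 1401 in Cy5 and 14498, 9798 and 6243 in Cy3. MT1A was highest in replicate 1 and lowest in replicate 3 in both dyes, 2.46-fold apart, and its Cy3 readings were the brighter ones. The other tested probes of FTH1, GPX3, PRDX2 and PRDX3 did not pass. Immediate early genes had 9 of 23 (39.1%; 8 without that reading), with no common order: KLF4 was 3.33-fold higher in replicate 1 than in replicate 3, JUN 2.13-fold and CCN2 2.14-fold in the same direction, and KLF10 was 2.11-fold higher in replicate 3 than in replicate 1. JUND, FOSL1, IER3, IER5 and BTG2 made up the rest.

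Of the identity list, 6 of 20 passed (30%; 5 without the Cy5 reading of replicate 3). CYP19A1, whose readings are given above, ranged by 2.42-fold with a limma adjusted p of 0.00028, though its other 2 probes did not pass. HSD17B1, which reduces oestrone to oestradiol, ranged by 1.89-fold, INHBB by 1.66-fold and AMH by 1.67-fold, each highest in replicate 1, although AMH under median centring had the opposite sign, at -0.022 on the log2 scale. FST went the other way and read 8199, 13601 and 13824 in Cy5 and 9722, 14835 and 14522 in Cy3, lowest in replicate 1, as was GSTA1. With plain background subtraction, AMH, INHBB, FST, HSD17B1 and GSTA1 no longer passed. Of steroid synthesis, 3 of 14 passed (21.4%; 2 without that reading). HSD3B1 read 2608, 1311 and 932 in Cy5 and 3711, 1714 and 1407 in Cy3 and CYP11A1 991, 511 and 411 in Cy5 and 2076, 886 and 835 in Cy3, both highest in replicate 1 and lowest in replicate 3 in each dye, like CYP19A1. FDX1, the electron donor of CYP11A1, was highest in replicate 3 by 1.92-fold.

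Of the expansion list, 3 of 17 passed (17.6%; 2 without the Cy5 reading of replicate 3). VCAN read 575, 670 and 1136 in Cy5 and 593, 836 and 2563 in Cy3, highest in replicate 3 by 3.08-fold, SNAP25, of membrane fusion, was 2.35-fold higher in replicate 2 than in replicate 3, and SDC4, a syndecan, ranged by 1.57-fold. Of the respiratory list, 6 of 37 passed (16.2%, and 6 without that reading), all 6 highest in replicate 1. Among them were ATP5MC2 at 2.29-fold, NDUFB10 and CYC1 at 2.07-fold and COX8A at 2.03-fold. The other tested probe of CYC1 did not pass. Of the ribosomal list, 7 of 62 passed (11.3%, beside 10.6% of all tested genes, most of which were dimmer), all 7 highest in replicate 1. RPS10 ranged by 2.79-fold and RPL29 by 2.70-fold, although RPL4 and RPL8 had the opposite sign under median centring. Cholesterol synthesis had 4 of 26 (15.4%), HMGCS1, SQLE, MSMO1 and SC5D, all highest in replicate 2 and lowest in replicate 3. MSMO1 read 25161, 24406 and 11891 in Cy5 and 26691, 33854 and 12806 in Cy3. None of the other 3 tested probes of HMGCS1 passed, nor did 1 of the other 3 of MSMO1.

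The remaining lists are given beside the 10.6% of all tested genes, a share not matched for brightness. Chaperones had 4 of 19 (21.1%), HSPB1, HSPD1 and HSP90B1 highest in replicate 1, the last of them with the opposite sign under median centring, and PDIA3 highest in replicate 3 by 2.23-fold. Interferon genes had 5 of 20 (25%): BOLA, IFI27, OAS1Z, ISG15 and RSAD2, the last 2 highest in replicate 3 by 1.77-fold and 1.83-fold (RSAD2 was above background in 5 of 6 readings), and IFI27 lowest there. The cytoskeleton list had 5 of 25 (20.0%), with ANXA2, an annexin, at 2.89-fold and TMSB10 at 2.08-fold highest in replicate 1, and CFL1, CTNNB1 and TPM3. Cell cycle had 3 of 33 (9.09%; 5 without the Cy5 reading of replicate 3), MCM2, NUSAP1 and CDKN2C, apoptosis 3 of 19 (15.8%), BIRC5, CLU and GADD45A, the cAMP pathway 2 of 15 (13.3%), GNAI2 and ADCY6, the IGF system 2 of 12 (16.7%), IGF2R and INSR, translation factors 2 of 24 (8.33%), EEF1G and PABPC1, the oocyte dialogue 1 of 18 (5.56%), BMPR2, and the matrix list 1 of 19 (5.26%), LAMB2. Among markers of other cells, LUM (1 of 8 theca and stroma genes), PTPRC (1 of 6 leukocyte genes) and HBA (1 of 5 erythrocyte genes) passed, and 0 of 7 oocyte, 0 of 7 endothelial and 0 of 1 surface epithelium genes did in limma. In these remaining lists, the other tested probes of HSPD1, IFI27, ISG15, MCM2, NUSAP1, BIRC5, CLU, GADD45A, ADCY6 and BMPR2 did not pass.

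**Figure D4:**
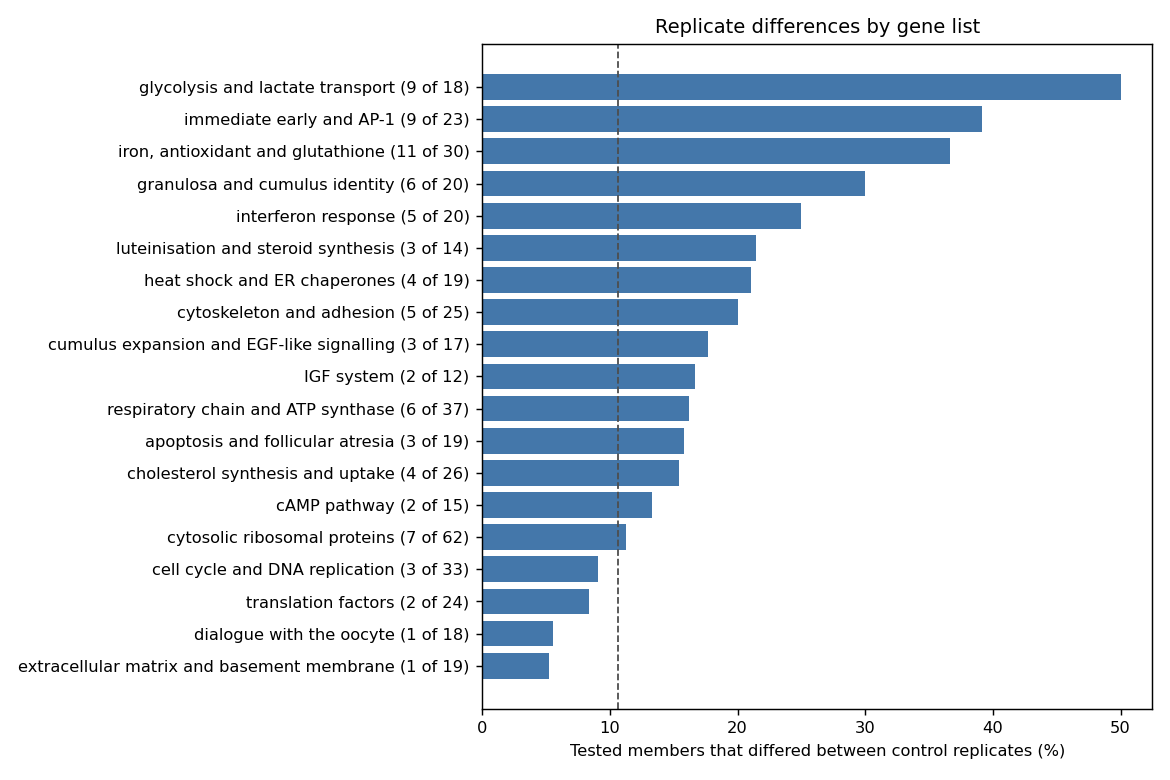
Share of tested list members that differed between the 3 control replicates (limma F test, adjusted p under 0.05), for the 19 lists with at least 10 tested genes, with counts in parentheses and the share of all 11739 tested genes, 10.6%, as a dashed line. Glycolysis, immediate early and redox genes have the longest bars, and the oocyte dialogue and matrix lists lie below the line. The line is not matched to the lists for brightness.

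The same fit compared the Cy5 with the Cy3 readings of the control cells, which come from the same 3 samples on different slides. Of the 11739 genes, 541 (4.61%) were higher and 504 (4.29%) lower in Cy5. SLC2A6, a hexose carrier, read 850, 584 and 558 in Cy5 and 7589, 7299 and 4070 in Cy3, a difference of -2.72 ± 0.17 (SE) on the log2 scale with a limma adjusted p of 8.59e-11. IL17RC, an interleukin 17 receptor, read 764, 672 and 687 in Cy5 and 6056, 6595 and 6303 in Cy3. MYCL and CLDN14 were likewise lower in Cy5, with differences of -2.52 and -2.48 on the log2 scale. These 4 were chosen as the largest differences in this direction, so Cy5 and Cy3 readings that do not overlap follow from the choice.

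In the other direction, UNC93A was higher in Cy5 by 1.43 ± 0.17, and SCP2, a sterol carrier, TET3, a dioxygenase of methylcytosine, and ITPK1, an inositol phosphate kinase, by 1.32, 1.31 and 1.22 on the log2 scale. In probes, 2661 differed by dye, 1588 without replicate 1, and 0 passed in limma under median centring, with 1157 at an unadjusted p under 0.05.

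The steadiest genes were sought among the 6114 that were above background in all 6 readings with a percentile between 50 and 95, where the median SD over the 6 normalized readings was 0.26 on the log2 scale. The 10 smallest SDs, 0.03 to 0.05, belonged to TCP11L2, MKNK1, C1QTNF3, LOC530354, DDX49, MTA3, ABHD6, LOC618409, PTPRT and CENPT. MKNK1, a kinase of the translation factor eIF4E, read 416, 350 and 354 in Cy5 and 550, 533 and 559 in Cy3, and TCP11L2 245, 211 and 209 in Cy5 and 299, 292 and 312 in Cy3. Their raw readings are low, within a few fold of the background thresholds, where the offset of 50 narrows log2 differences.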

How the data were processed

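Per the labels, each of 6 two-colour arrays held both conditions, with 3 biological replicates on a dye swap. The authors deposited scanner tables of raw median intensity and median local background intensity per spot and laser, per the file headers, with no correction. Limma is named, without a version, per the submitters' processing notes. The deposited log2 ratio tables were not used here, since they hold no level of a single channel.

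Control intensities minus local background were ranked among gene probes of each channel and the percentiles averaged over the 6 readings. Gene names came from the platform annotation: 21790 probes carried 1 symbol, 22004 none and 0 several. Symbols were updated through the RefSeq table of ARS-UCD2.0 (20025 current, 1524 by synonym, 241 kept as given). Of 623 list genes, 549 had a probe.

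For tests, intensities were corrected with normexp (offset 50), put on a log2 scale and then quantile-normalized over the 6 control readings. They were fitted with limma 3.58.1 in R 4.3.3, with Benjamini-Hochberg adjustment over all 29928 probes tested. The offset makes fold changes of dim probes understated. Arrays have no read depth, and their number and the signal above background limit the precision. On simulated data built from these readings, the replicate test recovered 99% of differences of 1 and 100% of differences of 2 on the log2 scale over 29928 probes, with 13 false calls. The simulated noise was independent and normal with the SDs of the fit, and the dye shift was the same for every probe. The model thus held by construction, so these figures check the code and do not give the sensitivity or false calls in the real readings.

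Same-numbered arrays were read as a dye swap of 1 extract from the design text. The deviations from the dye means correlated at 0.12, 0.09 and 0.08 for the 3 same-numbered pairs and between -0.07 and -0.02 for the others. Beside the mark of 0.1 set for this check, replicate 1 lay above and replicates 2 and 3 below. Deviations from a mean of 3 readings sum to 0, so the values below 0 are partly fixed by the centring. The pairing therefore rests on the design text.

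The genes named are the 30 brightest, the key, 3 highest and 3 lowest genes of each list, the 25 genes of lowest p with at least a 2-fold range that were above background in both readings of at least 1 replicate, the list members that passed, the 4 genes of largest dye difference each way and the 10 steadiest. The gene lists and members were chosen with earlier results of these data known. Alternatives to the background correction, normalization, filter, choice of probe, threshold and replicates were run, and that without the Cy5 reading of replicate 3 was chosen after seeing the data. Sequences and coordinates of probes were not used here.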

Additional observations from a re-analysis of the deposited data

How the results depend on the processing

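The 30 brightest genes shared 22 to 30 members with those under each of the 10 alternatives for levels, and 25 to 26 when a replicate was left out. Probes above background in all 6 readings numbered 15929, 29928 when 3 of 6 sufficed, and 16786 to 19628 without a replicate. Of 260 recomputed list medians, 57 moved by more than their SD, 18 of them when the median over a gene's probes replaced its brightest probe, which put the luteinisation list at 54.4 and the list of oocyte dialogue at 56.5. The 2481 probes that differed between replicates became 1220 with plain background subtraction, 825 of 11751 when the probes of a gene were averaged, 726 with at least a 2-fold range, 157 with no dye term, 0 with median centring, and 989 to 2292 without a replicate. The 2661 probes of the dye comparison became 1763 with plain subtraction, 646 with probes averaged, 0 with median centring, where the median dye difference over all probes was -0.17 on the log2 scale, and 1588 to 2001 without a replicate. With no replicate block, 545 probes differed by dye, and the share that was higher in Cy5 was 24.95% in place of 41.3%. Under median centring, 4 of 110 named replicate differences changed sign on the log2 scale: AMH to -0.022, RPL4 to -0.27, RPL8 to -0.13 and HSP90B1 to -0.094; the other 106 kept their direction and no longer passed in limma. The prior degrees of freedom fell with this setting, as given above, and the cause of that was not tested. Dropping the dye term ended 79 of the 110 calls, plain subtraction 41, averaging probes 27, two-colour normalization 16, no subtraction 12 and leaving out the Cy5 reading of replicate 3 15.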

Other observations

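Every array carried cetrorelix cells in its other channel, and for the 25 genes named for their differences between control replicates the same-numbered cetrorelix channel was read as well, a step added after the control values were seen. For 20 of the 25 (80.0%) the replicate that was highest in control cells was also the highest in cetrorelix cells, beside 4828 of all 11739 tested genes (41.1%), and for 12 (48.0%, beside 21.9%) the lowest replicate was the same too. Over all 1249 genes past the replicate test the counts were 570 (45.6%) and 327 (26.2%). The channels share their arrays and spots, and the labels do not say whether same-numbered samples share cows, so sources of this likeness cannot be told apart. BOLA-DQB read 216, 34789 and 191 in the cetrorelix channel of replicates 1, 2 and 3 on the arrays with control cells in Cy5, and 208, 14205 and 122 on those with control cells in Cy3. TARS3 read 8909, 7488 and 1015, and 8198, 7206 and 756, on the same arrays. Replicate 2 alone was bright for BOLA-DQB, and replicate 3 alone was dim for TARS3, as in control cells.

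The size of the differences was not always alike. VNN1 read 1457, 1369 and 1214 in the cetrorelix channel on the arrays with control cells in Cy5, and 1119, 856 and 1158 on the others, with a range of 0.05 on the log2 scale, although its highest and lowest replicates were those of the control cells. CENPX read 12344, 14811 and 10219, and 6481, 7565 and 6476, without the bright replicate 1 of the control cells. GPX4 read 4367, 2549 and 3625, and 5198, 2001 and 3550, with replicate 2 and not replicate 3 the lowest. Whether replicate differences differed between the conditions was not tested.

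Among the 434 brightest 1% of gene probes, 172 (39.6%) had no gene symbol, beside 50.3% of all gene probes, and 53 probes belonged to 37 ribosomal protein genes.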
